A study of Homo sapiens with 6 samples.

Results

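The shared response described here is the set of genes whose transcript level moved the same way in both KRT6A knockdown groups of SK-MES-1 cells. A gene belonged to it when its mean over all 6 libraries was at least 1 FPKM (fragments scaled by gene length and by library depth) and its 4 knockdown values all lay above, or all below, both control values. Of 12319 genes that reached that mean, in a table of 58735, the rule found 3529 (28.6%). Of these, 1729 were higher in every knockdown library (14% of the genes tested) and 1800 were lower (14.6%). The rule reads the same values that are described below, so the size of the set and the direction of its members are descriptions and carry no test.

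SK-MES-1 is a human line from a squamous cell carcinoma of the lung. The study sequenced RNA from cells with a transient KRT6A knockdown and from control cells. Controls are labelled NC, and knockdown cells si1 or si2. Each of these 3 groups has 2 libraries, and the labels give neither the reagents behind these codes nor the time of harvest. They do not say that replicates came from separate cultures, so p-values may measure only the spread between libraries. All 3 groups are of 1 line, for which the labels give no other genotype or agent, and both knockdown groups were set against the same pair of NC libraries. Depth was 14948607 to 17401392 reads per library.

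The knocked-down gene gave no check of the labels. KRT6A, a keratin of stressed and squamous epithelium (chr12:52487174-52493257), had 0 reads in all 6 libraries, NC included. A count of 0 allows up to 3 reads, or 0.0583 to 0.0678 FPKM depending on the library. Its close copy KRT6C also had 0 reads, and KRT6B had 1 read, in NC replicate 2. Squamous and basal markers were sparse: 5 of 20 reached 1 FPKM on average, and 4 were at 0. Their summed level was 69.5 to 69.8 FPKM in NC, 61.3 to 67.0 in si1 and 54.2 to 58.9 in si2. Of 13 epithelial markers 7 reached 1 FPKM, and their sum was 370 to 397 FPKM in NC, 382 to 388 in si1 and 274 to 286 in si2. Of 17 mesenchymal markers 9 reached 1 FPKM and 2 were at 0. Their sum was 383 to 386 FPKM in NC, 460 to 464 in si1 and 462 to 469 in si2. VIM made the largest part, at 204 FPKM on average. FN1, given below, made most of the rise in the sum, and in si2 it rose by more than the sum did. Of the 9, 4 were shared and higher and 1 was shared and lower. Of 14 leukocyte and endothelial markers 1 reached 1 FPKM, and of 8 neuroendocrine markers 0 did. The part these markers have in the results was not tested. In bulk RNA, fewer cells of a type and less RNA per cell cannot be told apart.

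A small interfering RNA directs an Argonaute protein to messenger RNAs that pair with it, and the loss of the intended transcript then changes other genes in turn. It can also lower transcripts that pair with it only over its seed, a short stretch near its 5′ end, mostly through their 3′ untranslated regions. For that reason knockdown studies use several reagents against one gene and look at what they share. The shared set below held genes of redox metabolism, zinc finger transcription factors, membrane transporters, cytokine signalling, the actin cytoskeleton and protein folding.

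Levels were compared as log2(FPKM + 1), with limma fitted to all 6 libraries and Benjamini-Hochberg adjustment over the 12319 genes. A gene is called changed below, or said to have risen or fallen, when its adjusted p in the contrast of si1 and si2 together against NC was under 0.05. That contrast called 1076 genes higher (8.73%) and 1453 lower (11.8%). Against NC alone, si1 had 9.47% of tested genes called higher and 12.9% lower, and si2 13.6% and 15.4% (22.4% and 29% in either direction). Of the genes called in the contrast of both groups, 154 higher and 406 lower were not shared, since they had at least 1 knockdown value inside the NC values or beyond them on the other side. Most shared differences were small. Their median was 0.31 for the higher genes (0.28 in si1 and 0.32 in si2) and -0.33 for the lower genes (-0.30 and -0.32). A change of at least 0.5 in each knockdown group was seen for 186 higher and 181 lower genes, and of at least 1 in each for 19 and 24. In 803 higher and 812 lower genes the smaller of the si1 and si2 changes was under 0.2. The rule and the test read the same 6 values, so that a shared gene never overlaps NC and its call is not independent of its choice. Without NC replicate 1 the contrast called 305 genes higher and 421 lower, and without NC replicate 2 it called 298 and 403. Without si2 replicate 1 the counts were 673 and 944, and without si2 replicate 2 they were 711 and 993. The genes named with a test below kept their call with each library left out in turn, unless a sentence says otherwise. They were mainly picked for the text by that stability, so it is a choice and not a result. Many other genes called in the contrast lost their call without an NC library.

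The higher and lower sets resembled the tested genes in simple properties. Median level was 7.22 FPKM in the higher genes, 7.48 in the lower genes and 6.44 in all tested genes. Median gene length was 4983, 5159.5 and 4659 bases. Protein-coding genes made up 90.1%, 92.8% and 87.4%. At the edge of the level filter, WNT9A (1.00 FPKM on average) and ZNF836 (1.01) were just inside among higher genes, and SYT12 (0.992) and ZNF225 (0.990) just outside. Among lower genes NXPH2 (1.01) and ADPRHL1 (1.01) were just inside, and SYNE1 (0.997) and KIAA0040 (0.997) just outside. Below the filter, 786 genes otherwise met the rule as higher and 892 as lower.

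The shared genes with the largest changes were ranked by the smaller of their si1 and si2 changes. At the head of the higher genes stood AKR1B10, an aldo-keto reductase that reduces retinal and reactive aldehydes (chr7:134527592-134541408). It was at 14.5 and 13.7 FPKM in NC, 43.8 and 47.97 in si1 and 36.4 and 34.6 in si2. The si1 libraries lay above the si2 libraries. The change was 1.63 in si1, 1.27 in si2 and 1.45 ± 0.06 (SE) in both together, with an adjusted p of 0.000139. OGFR, the opioid growth factor receptor, was at 3.04 and 3.38 FPKM in NC, against 10.9 and 10.3 in si1 and 8.70 and 9.31 in si2, a change of 1.36 ± 0.07 (adjusted p = 0.000216). TPM4, an actin-binding tropomyosin, was at 25.04 and 22.97 FPKM in NC, 54.1 and 56.6 in si1, and 77.03 and 77.1 in si2. Here the libraries stood in steps, with NC lowest, si1 between and si2 highest. TPM4 changed by 1.17 in si1 and 1.64 in si2 (adjusted p = 0.000139 for both together). ELF3, an ETS factor of epithelial cells, was at 1.81 and 1.88 FPKM in NC, 5.61 and 5.04 in si1 and 5.87 and 5.56 in si2. The si1 and si2 values of ELF3 overlapped each other, and it rose by 1.19 ± 0.08 (adjusted p = 0.000325). GANAB, the catalytic subunit of the glucosidase that trims sugars from new glycoproteins, was at 49.7 and 51.5 FPKM in NC, against 113 and 104 in si1 and 126 and 129.8 in si2. TNFRSF11B, the decoy receptor osteoprotegerin, was at 2.92 and 3.12 FPKM in NC, 7.36 and 7.52 in si1, and 9.99 and 9.36 in si2. Both rose, by 1.20 and 1.24 (adjusted p = 0.000147 and 0.000216).

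Other higher genes near the top served unrelated tasks. BICD2 links dynein to its cargo, STX12 is a syntaxin of endosomes, CHST14 sulfates dermatan, RGS19 shortens G protein signals, GLDN is an extracellular olfactomedin-domain protein, and ZW10 acts at the kinetochore and in ER traffic. Their changes in both groups together were 1.14, 1.10, 1.02, 1.04, 1.09 and 1.10. CHST14 was among those with the closest values in the knockdown groups, 1.01 in si1 and 1.04 in si2. SAA2, an acute-phase serum amyloid gene, rested on few reads, 21 to 121 per library. HABP4, an RNA-binding protein gene, was at 2.12 and 1.80 FPKM in NC, 7.18 and 6.64 in si1 and 5.13 and 5.14 in si2. Of its exon bases 27% overlap CDC14B on the other strand. How strand was counted is not given in the sources used here, so reads of overlapping genes cannot be told apart.

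**Figure D1:**
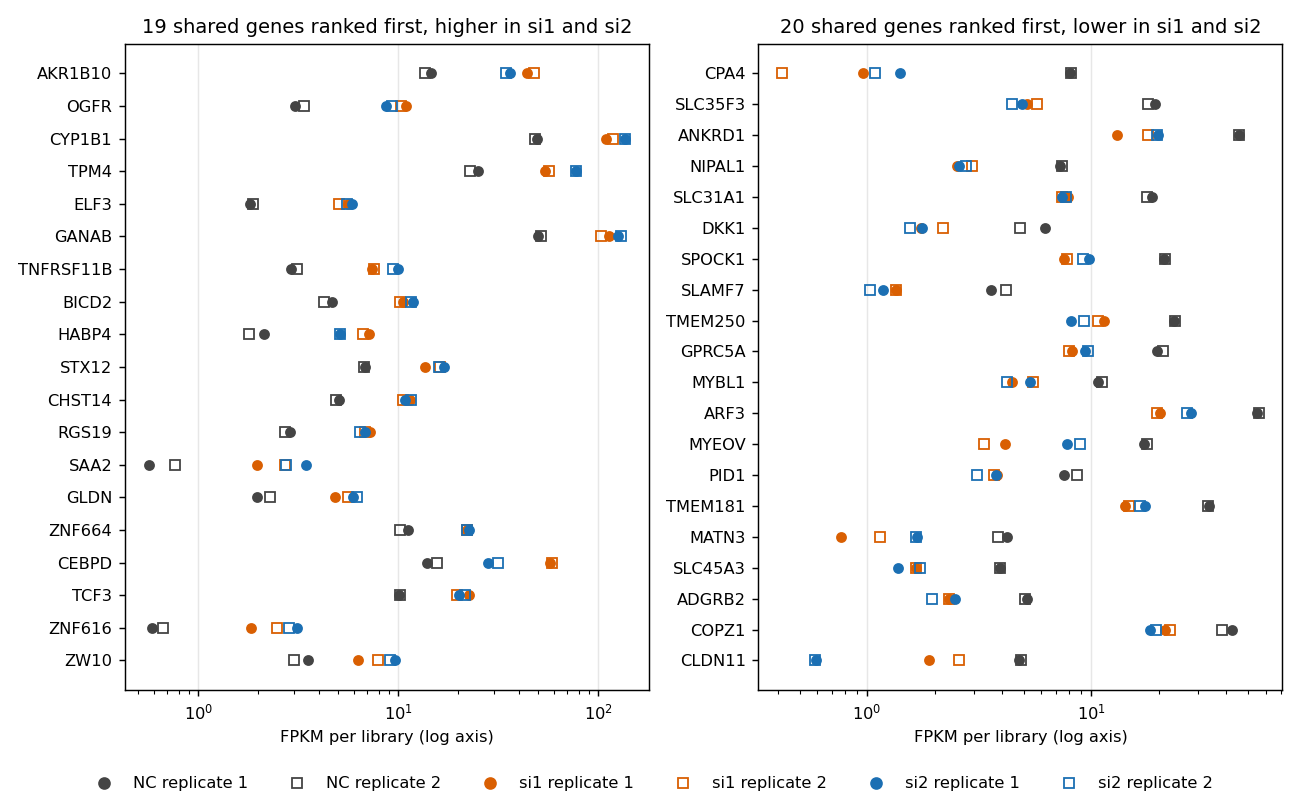
FPKM of 19 higher (left) and 20 lower (right) shared genes among those ranked first by their smaller change, on a log axis, 1 point per library with NC in grey, si1 in orange and si2 in blue, and filled circles for replicate 1, open squares for replicate 2. The knockdown points of each gene lie on 1 side of both NC points, by the rule that chose the genes; CPA4 has the widest gap, from 8.03 and 8.16 FPKM in NC to between 0.418 and 1.41 in the knockdown libraries.

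CPA4, a secreted carboxypeptidase, had the largest smaller change among the lower genes. It was at 8.03 and 8.16 FPKM in NC, against 0.958 and 0.418 in si1 and 1.41 and 1.09 in si2, which is 28 to 567 reads per library. It changed by -2.45 in si1 and -2.02 in si2, and si1 replicate 2 was lowest. SLC35F3, a thiamine transporter candidate of the nucleotide sugar transporter family, was at 19.2 and 17.9 FPKM in NC, 5.15 and 5.71 in si1, and 4.89 and 4.43 in si2 (change -1.70 ± 0.08, adjusted p = 0.000139). Its 4 knockdown values lay within 4.43 to 5.71 FPKM, far from NC. ANKRD1, a nuclear and sarcomeric ankyrin-repeat protein, was at 45.7 and 45.6 FPKM in NC, 13.1 and 17.9 in si1 and 19.8 and 19.8 in si2 (change -1.34 ± 0.11, adjusted p = 0.000684). NIPAL1, which moves magnesium, and SLC31A1, the copper importer CTR1, fell by similar amounts in both groups. NIPAL1 was at 7.25 and 7.40 FPKM in NC, against 2.51 and 2.95 in si1 and 2.58 and 2.75 in si2. SLC31A1 was at 18.7 and 17.8 FPKM in NC, 7.85 and 7.44 in si1, and 7.38 and 7.70 in si2. Their si1 and si2 values overlapped each other and not NC, with changes of -1.16 and -1.18 for NIPAL1 and -1.15 and -1.17 for SLC31A1. DKK1, a secreted inhibitor of WNT signalling, was at 6.21 and 4.80 FPKM in NC, 1.75 and 2.17 in si1 and 1.75 and 1.56 in si2 (change -1.21 ± 0.12, adjusted p = 0.00129). The NC libraries of DKK1 differed more from each other than the knockdown libraries did.

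Further down the ranking stood cell-surface and secreted proteins. SPOCK1, a secreted proteoglycan, was at 21.1 and 21.4 FPKM in NC, against 7.53 and 7.82 in si1 and 9.75 and 9.23 in si2. GPRC5A, an orphan receptor of lung epithelium, was at 19.7 and 20.8 FPKM in NC, 8.22 and 7.98 in si1, and 9.41 and 9.73 in si2. SLAMF7, an immune-cell adhesion receptor, was at 3.57 and 4.15 FPKM in NC, 1.34 and 1.34 in si1 and 1.18 and 1.03 in si2. In all 3 the si1 and si2 libraries lay below the lower NC library by a wide margin, with changes of -1.22, -1.11 and -1.13. ARF3, a small GTPase of the Golgi, changed by -1.21, and COPZ1, a subunit of the COPI coat that ARF proteins recruit, by -0.96. COPZ1 was at 42.6 and 38.5 FPKM in NC, against 21.3 and 22.4 in si1 and 18.4 and 19.4 in si2. MYBL1, a MYB-family transcription factor, changed by -1.03. PID1, an adaptor that dampens insulin signalling, changed by -0.996. CLDN11, a tight-junction claudin, was at 4.75 and 4.87 FPKM in NC, 1.88 and 2.58 in si1, and 0.594 and 0.585 in si2, so that si2 lay below si1 as well as NC. With si1 and si2 fitted as 1 group, which puts the difference between them into the error, 50 of all tested genes were called higher and 34 lower. The ranking by the smaller change favours genes that pass that fit, so their calls in it are no separate support. Of the ranked genes, 16 of the 20 higher and 17 of the 20 lower were still called. The exceptions were CEBPD, SAA2, ZNF616 and ZW10 among higher genes and CLDN11, MATN3 and MYEOV among lower genes. Of the genes named below and outside the ranking, those still called in that fit were ASAP1, CEMIP2, DDIT4, ENAH, IFIT2, JCAD, LAMB3, LIMA1, PERP, RPL26L1, RPS3, SLC2A3, SLC6A17, TOMM22, ZFP90, ZNF415, ZNF525 and ZNF845.

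Zinc finger transcription factors made up the largest group of shared higher genes among the gene lists used here. C2H2 zinc finger proteins bind DNA through tandem fingers, and many carry a KRAB domain that recruits TRIM28 to silence chromatin, including at transposable elements. Of 332 tested genes with a ZNF symbol, 136 were shared and higher (41.0%, against 14% of all tested genes) and 13 were shared and lower (3.92%, against 14.6%). In the contrast of both groups, 68 were called higher and 6 lower. Without NC replicate 1 the calls were 26 and 1, and without NC replicate 2 they were 17 and 0. The median difference over the 332 was 0.15 (0.17 in si1, 0.16 in si2), against -0.01 for all tested genes. By library it was 0.16 and 0.16 in si1 and 0.18 and 0.16 in si2, with each NC library within 0.005 of 0. Their summed level was 1104 and 1094 FPKM in NC, 1279 and 1261 in si1, and 1278 and 1264 in si2. All 4 knockdown sums lay above both NC sums and close to each other.

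Single members moved by similar or by unequal amounts in the 2 knockdown groups. The direct contrast of si2 with si1 called 53 of the 332 ZNF genes, 15 of them shared. ZNF664 (chr12:123971845-124015439) was at 11.2 and 10.2 FPKM in NC, 21.995 and 22.1 in si1 and 22.6 and 22.1 in si2, and rose by 0.98 in si1 and 0.99 in si2 (adjusted p = 0.000266 for both together). Its 4 knockdown values lay within 1 FPKM of each other. ZNF525 (chr19:53365693-53392217) was at 1.06 and 1.02 FPKM in NC, against 2.81 and 2.88 in si1 and 2.77 and 2.87 in si2, and rose by 0.92 and 0.91. ZNF845 (chr19:53333746-53356906) was at 1.48 and 1.65 FPKM in NC, 3.54 and 4.04 in si1, and 4.95 and 4.74 in si2. ZNF415 (chr19:53107879-53133077) was at 1.35 and 1.55 FPKM in NC, 3.20 and 3.97 in si1 and 3.92 and 3.38 in si2. ZNF616 (chr19:52113091-52139922) was at 0.587 and 0.664 FPKM in NC, against 1.83 and 2.46 in si1 and 3.11 and 2.84 in si2, from 48 to 240 reads. ZFP90, a KRAB zinc finger gene with another symbol, was at 3.41 and 3.25 FPKM in NC, 6.98 and 6.36 in si1, and 6.41 and 6.85 in si2, and rose by 0.82 ± 0.07 (adjusted p = 0.000918). The 4 genes on chromosome 19 were under 5 FPKM in every library, and ZNF616 had a wider spread between its knockdown libraries than ZNF525.

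Many ZNF genes lie in clusters on chromosome 19. A split by chromosome, chosen after the values were seen, gave 70 shared higher and 1 shared lower among 140 ZNF genes of chromosome 19, the lower one being ZNF57. On other chromosomes it gave 66 and 12 of 192. The median difference was 0.22 on chromosome 19 and 0.08 elsewhere. Between 52 and 54 Mb of chromosome 19, 22 of 28 ZNF genes were shared and higher and 0 were shared and lower, with a median of 0.44. The 15 other genes tested in that window held 3 higher and 3 lower, and the 628 other genes of chromosome 19 held 76 higher (12.1%) and 90 lower (14.3%). The share of higher ZNF genes was 41.7% at 1 to 2 FPKM, where other genes had 10.4%. It was 43.4% against 12% at 2 to 5 FPKM, 32.4% against 13.9% at 5 to 10, and 36% against 15.1% at 10 or more. ZNF genes share sequence, and the way reads mapping to several copies were treated is not given in the sources used here.

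**Figure D2:**
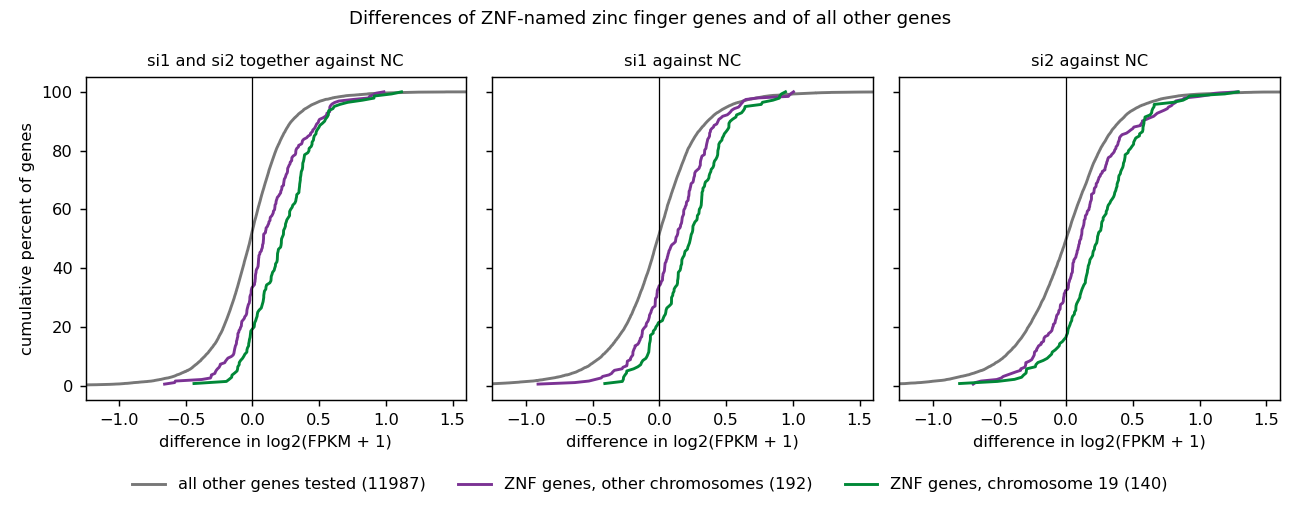
Cumulative percent of genes (vertical axis) by their difference from NC in log2(FPKM + 1) (horizontal axis), for both knockdown groups together and for each, with ZNF genes of chromosome 19 in green, ZNF genes of other chromosomes in purple and all other tested genes in grey. The green curve lies to the right of the grey one over most of its range in all 3 panels, with a median of 0.22 in the left panel.

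Other families of transcription factors did not show this tilt as a whole. Of 383 tested genes that the deposited annotation places in the C2H2 family, 145 were shared and higher and 22 lower, while the 485 genes of other factor families held 81 higher (16.7%) and 71 lower (14.6%). CEBPD, a C/EBP factor induced by inflammatory signals, was at 13.9 and 15.6 FPKM in NC, 57.4 and 58.8 in si1 and 28.1 and 31.5 in si2. Its si1 libraries exceeded its si2 libraries, which exceeded NC, and the changes were 1.91 and 0.97. CEBPB, its relative, was at 43.8 and 44.1 FPKM in NC, against 60.7 and 64.97 in si1 and 57.03 and 58.98 in si2, and rose by 0.45 ± 0.05 (adjusted p = 0.00209). TCF3, a bHLH factor that pairs with tissue-specific partners, was at 10.1 and 10.3 FPKM in NC, 22.6 and 19.6 in si1, and 20.1 and 21.5 in si2. It rose by 0.98 in si1 and 0.96 in si2. Of 13 C/EBP and epithelial lineage factors tested, 4 were shared and higher and 0 lower. Of 17 tested AP-1 and immediate-early genes, 3 were shared and higher (17.6%, against 14% of all tested genes). Shared and lower were 6 (35.3%, against 14.6%), and the median over the 17 was -0.03. FOSL1, the FOS-related subunit most abundant here among those named, was at 124 and 132 FPKM in NC, 46.5 and 42.7 in si1 and 81.6 and 88.3 in si2, and fell by 1.04 ± 0.06 (adjusted p = 0.00024). JUN was at 49.7 and 52.4 FPKM in NC, against 30.8 and 27.6 in si1 and 35.8 and 37.1 in si2. FOSL2 was at 40.4 and 40.9 FPKM in NC, 36.5 and 29.8 in si1, and 21.7 and 21.3 in si2. Their changes were -0.63 and -0.59, with the lowest values in si1 for JUN and in si2 for FOSL2.

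Many genes of redox and xenobiotic metabolism were higher, as AKR1B10 was. NRF2 is a transcription factor that is stabilised by oxidants and switches on enzymes that make glutathione and NADPH, and the aryl hydrocarbon receptor (AHR) switches on cytochrome P450 genes. Of 33 tested NRF2 targets 15 were shared and higher and 2 lower, and 16 were called higher and 3 lower. Without NC replicate 1, or without NC replicate 2, 10 were called higher and 0 lower. ME1, a malic enzyme that makes NADPH, was at 51.1 and 46.99 FPKM in NC, 107 and 121 in si1 and 72.2 and 71.3 in si2 (change 0.87 ± 0.07, adjusted p = 0.000538). GCLC, the catalytic subunit of the first enzyme of glutathione synthesis, was at 31.8 and 30.8 FPKM in NC, against 52.6 and 58.8 in si1 and 42.5 and 42.9 in si2 (change 0.62). The aldo-keto reductase AKR1C1 was at 113 and 101 FPKM in NC, 235 and 238 in si1, and 140.3 and 149 in si2. AKR1C2 was at 68.3 and 71.3 FPKM in NC, 151 and 174 in si1 and 96.3 and 92.97 in si2. In these 4 genes si1 lay above si2 and si2 above NC. AKR1C1 and AKR1C2 are near-identical copies, so their reads may have been split between them.

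Among AHR targets and regulators, 4 of 8 were shared and higher and 0 lower. CYP1B1, a P450 that oxidises steroids and aromatic hydrocarbons (chr2:38066973-38109902), was at 49.6 and 48.5 FPKM in NC, against 109 and 119 in si1 and 136 and 135 in si2, and rose by 1.20 in si1 and 1.45 in si2. ALDH3A1, which clears aldehydes, was at 30.7 and 34.4 FPKM in NC, 62.4 and 56.2 in si1, and 43.6 and 44.9 in si2, and rose by 0.64 ± 0.07 (adjusted p = 0.00167). AHR itself was at 41.1 and 39.9 FPKM in NC, 43.3 and 49.3 in si1 and 68.4 and 64.3 in si2 (change 0.44). The adjusted p rose to 0.0512 when NC replicate 1 was left out and to 0.0651 when NC replicate 2 was, so the call rests on both. In glutathione S-transferase and metallothionein genes the shared members were mixed, 3 higher and 3 lower of 16 (18.8% each). GSTM4 was at 7.95 and 7.42 FPKM in NC, against 5.62 and 5.92 in si1 and 3.60 and 4.12 in si2. MT1E, a metal-binding protein, was at 60.1 and 59.4 FPKM in NC, 44.5 and 48.9 in si1, and 35.9 and 30.3 in si2. Both fell, with a deeper fall in si2 than in si1.

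**Figure D3:**
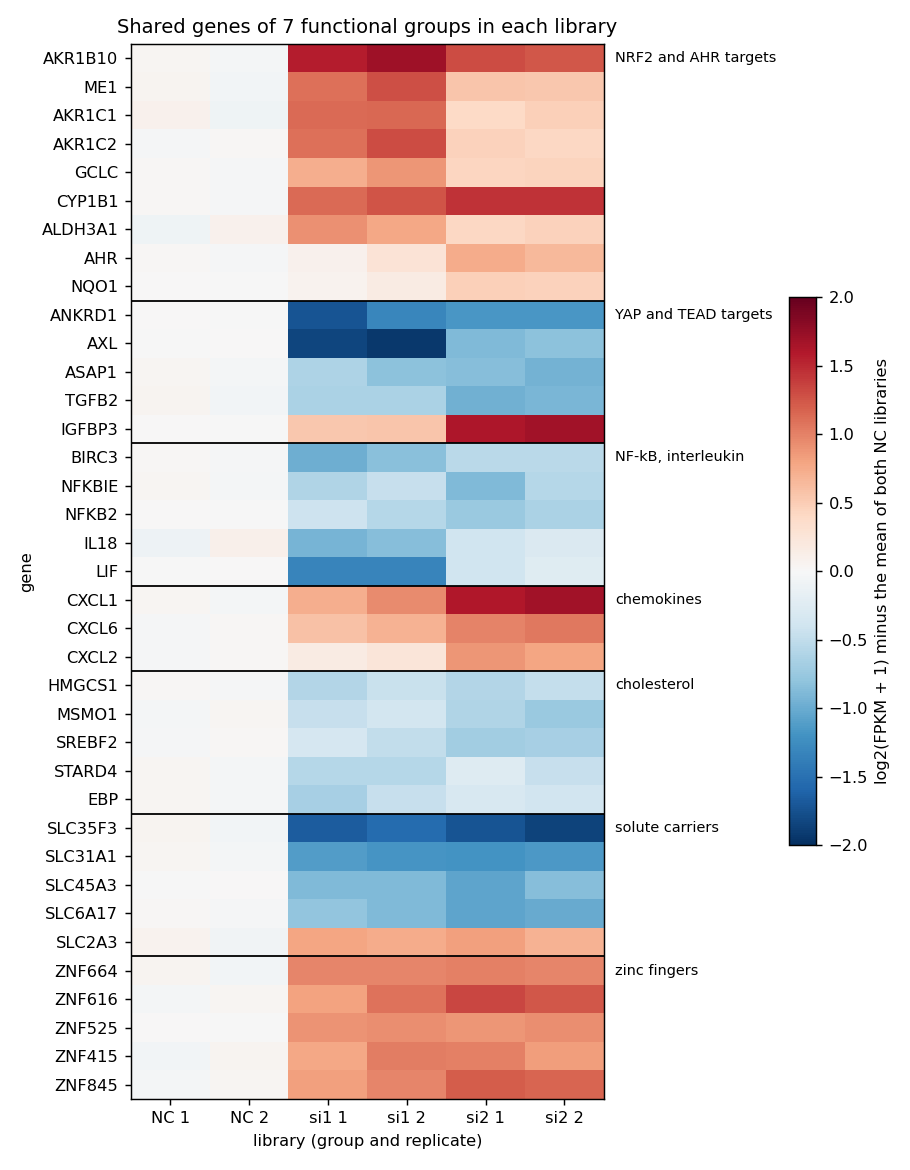
log2(FPKM + 1) of named shared genes in each library (columns) minus the mean of both NC libraries, with rows grouped by function and red for higher, blue for lower. Rows keep 1 colour across the 4 knockdown columns by the rule that chose them, while depth of colour differs between si1 and si2 for genes such as AXL (changes of -1.88 and -0.85).

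Shared interleukin and NF-kB genes were mostly lower, and the few shared chemokine genes were higher. NF-kB is held in the cytoplasm by inhibitor proteins and, once freed, induces cytokines, survival genes and its own inhibitors. Of 23 tested interleukins, colony-stimulating factors and NF-kB feedback genes, 2 were shared and higher and 12 lower. Called were 1 higher and 11 lower, and 0 and 6 without NC replicate 1 or without NC replicate 2. BIRC3, an inhibitor of apoptosis and NF-kB target, was at 52.2 and 50.8 FPKM in NC, 25.7 and 28.4 in si1 and 35.03 and 35.3 in si2, and fell by 0.72 ± 0.06 (adjusted p = 0.00064). NFKB2, which encodes the p100 subunit, was at 35.4 and 34.6 FPKM in NC, against 25.9 and 23.1 in si1 and 20.6 and 22.1 in si2. LIF, a cytokine of the interleukin-6 family, was at 25.5 and 25.9 FPKM in NC, 9.74 and 9.69 in si1, and 19.3 and 21.5 in si2. IL18, an inflammasome product, was at 8.27 and 9.55 FPKM in NC, 4.17 and 4.45 in si1 and 6.53 and 7.07 in si2. In LIF and IL18 the si2 libraries lay between si1 and NC. Of 12 tested chemokine genes, 3 were shared and higher and 0 lower, and the median over the 12 was -0.11 in si1 and 0.73 in si2. CXCL1, a neutrophil attractant, was at 43.4 and 40.9 FPKM in NC, against 70.6 and 81.9 in si1 and 131 and 137 in si2, in steps from NC to si1 to si2. It rose by 0.84 in si1 and 1.64 in si2. CXCL2 was at 15.7 and 16.4 FPKM in NC, 18.1 and 19.2 in si1, and 30.4 and 28.5 in si2. CXCL6 was at 2.36 and 2.48 FPKM in NC, 4.15 and 4.52 in si1 and 5.83 and 6.09 in si2, with changes of 0.52 and 0.83. CD274, the checkpoint ligand PD-L1, was at 8.14 and 7.25 FPKM in NC, against 2.86 and 3.09 in si1 and 4.78 and 4.51 in si2, and fell by 0.88 ± 0.08 (adjusted p = 0.000918).

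The TNF superfamily was divided. Of 22 tested members 5 were shared and higher (22.7%) and 7 lower (31.8%). TNFSF10, the death ligand TRAIL, was at 7.77 and 7.38 FPKM in NC, 18.8 and 21.01 in si1, and 10.2 and 11.2 in si2, and rose by 0.87, and TNFRSF11B, a decoy that also binds TRAIL, rose as given above. Among lower members, TNFRSF9, a costimulatory receptor, was at 43.1 and 42.1 FPKM in NC, 16.2 and 16.6 in si1 and 33.6 and 32.1 in si2. TNFRSF1B, the second TNF receptor, was at 9.14 and 10.1 FPKM in NC, against 6.93 and 5.18 in si1 and 3.71 and 3.60 in si2. TNFRSF10B, a TRAIL receptor and p53 target, was at 49.2 and 49.4 FPKM in NC, 28.99 and 28.2 in si1, and 47.5 and 48.4 in si2. Its si2 values lay just under NC (change -0.04) and its si1 values far under (-0.76). Among p53 targets 3 of 23 were shared and higher (13%, against 14% of all tested genes) and 5 lower (21.7%, against 14.6%). CDKN1A, the cyclin-dependent kinase inhibitor p21, was at 41.7 and 43.3 FPKM in NC, 31.9 and 29.9 in si1 and 31.7 and 31.7 in si2, and fell by 0.43 ± 0.05 (adjusted p = 0.0028). PERP, a p53 target of desmosomes, was at 51.8 and 49.3 FPKM in NC, against 88.1 and 105 in si1 and 112 and 111 in si2, and rose by 1.02 ± 0.07 (adjusted p = 0.000467).

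Growth factor ligands and receptors were shared in both directions. Of 9 tested EGF-receptor ligands and ERBB receptors 2 were shared and higher and 3 lower, and of 16 other receptor tyrosine kinases 3 were higher and 4 lower. Of 370 tested genes whose description holds the word receptor, of every kind, 46 were shared and higher (12.4%) and 80 lower (21.6%). Descriptions in which associated, interacting or binding follows that word were left out. HBEGF, a ligand of the EGF receptor, was at 7.30 and 6.91 FPKM in NC, 1.88 and 2.17 in si1, and 3.99 and 4.47 in si2, and fell by 1.03 ± 0.08 (adjusted p = 0.000651). BTC, another such ligand, moved the opposite way, at 6.46 and 5.68 FPKM in NC, 6.89 and 6.95 in si1 and 14.8 and 14.5 in si2, with si1 close to NC and si2 well above. ERRFI1, an inhibitor of the EGF receptor, was at 93.7 and 89.95 FPKM in NC, against 107 and 109 in si1 and 152 and 148 in si2 (change 0.47). MET, the receptor of hepatocyte growth factor, was at 48.4 and 48.7 FPKM in NC, 35.9 and 35.8 in si1, and 32.7 and 30.6 in si2. EPHA2, an ephrin receptor, was at 95.8 and 99.8 FPKM in NC, 47.4 and 41.6 in si1 and 77.8 and 82.1 in si2. Both fell, MET by 0.43 and 0.60 in si1 and si2, EPHA2 by 1.12 and 0.29. Of 18 tested MAPK feedback genes 0 were shared and higher and 3 lower, with a median of -0.51 in si1 and 0.14 in si2. SPRY4, an inhibitor of receptor kinase signals, was at 5.20 and 5.26 FPKM in NC, against 2.04 and 1.97 in si1 and 3.44 and 3.77 in si2. ETV5, an ETS factor downstream of ERK, was at 19.3 and 18.7 FPKM in NC, 4.66 and 5.78 in si1, and 15.8 and 16.1 in si2. In both the fall was larger in si1. TGFB2, a TGF-beta ligand, was at 28.4 and 26.5 FPKM in NC, 17.4 and 17.4 in si1 and 13.6 and 14.1 in si2. SMAD3, a transducer of the pathway, was at 69.4 and 68.6 FPKM in NC, against 42.8 and 38.5 in si1 and 49.1 and 48.4 in si2. They fell by 0.78 ± 0.06 and 0.62 ± 0.06 (adjusted p = 0.000491 and 0.000983), while shared members of the whole TGF-beta list were 6 higher and 5 lower of 30.

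YAP and TEAD targets held more lower than higher members. YAP is the coactivator that the Hippo kinases keep out of the nucleus, and TEAD proteins carry it on DNA. Of 33 tested YAP and TEAD targets and Hippo genes, 1 was shared and higher and 16 were shared and lower. Called were 3 higher and 17 lower, against 1 and 10 without NC replicate 1 and 1 and 8 without NC replicate 2. The median over the 33 was -0.26. Besides ANKRD1, AXL, a receptor tyrosine kinase, was at 134 and 135 FPKM in NC, 36.9 and 34.8 in si1, and 72.7 and 76.1 in si2, and fell by 1.88 in si1 and 0.85 in si2. ASAP1, an ARF GTPase-activating protein, was at 27.8 and 26.04 FPKM in NC, 17.1 and 14.8 in si1 and 14.5 and 13.5 in si2, and fell by 0.81 ± 0.08 (adjusted p = 0.00102). IGFBP3, a binding protein of insulin-like growth factors, was the shared higher member, at 33.9 and 33.4 FPKM in NC, against 49.1 and 49.97 in si1 and 106 and 109 in si2. Its si2 libraries lay far above its si1 libraries (changes of 1.65 and 0.54).

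Promoters of the shared genes were searched for the binding letters of factors whose targets are listed above. RefSeq (GRCh38.p14) gave a promoter, from 250 bases before the start to 50 after it, for 8862 of the 12319 tested genes, 1291 of them shared and higher and 1353 shared and lower. Letters were sought on both strands, and a match describes letters only. The TEAD letters GGAATG stood in 9.84% of higher, 11.2% of lower and 10.7% of all tested promoters. The AP-1 letters TGANTCA stood in 5.11%, 4.58% and 4.55%, and the antioxidant core TGACNNNGC in 12.3%, 15.6% and 15.2%. The AHR core TNGCGTG stood in 8.75%, 6.65% and 7.35%. None of these shares parted the shared genes from all genes by more than a few points. The antioxidant core and the AP-1 letters can overlap, as they do in ME1 and in CPA4. The promoters of a lower gene with both kinds of match, CPA4, of the YAP target ANKRD1 and of the NRF2 target ME1 are shown, 5′ to 3′ on the gene's strand, with the matches in capitals. CPA4 (chr7:130292911-130293210, plus strand) has TEAD letters 134 bases before its start and AP-1 letters 48 and 15 bases before it. The AP-1 letters 15 bases before the start, with the next bases gc, also read as the antioxidant core, which is marked only in ME1. ANKRD1 (chr10:90921038-90921337, minus strand) has TEAD letters 220 and 128 bases before its start and AP-1 letters 195 bases before it. ME1 (chr6:83431002-83431301, minus strand) has the antioxidant core 137 bases before its start and, on the other strand, 11 bases after it.
CPA4: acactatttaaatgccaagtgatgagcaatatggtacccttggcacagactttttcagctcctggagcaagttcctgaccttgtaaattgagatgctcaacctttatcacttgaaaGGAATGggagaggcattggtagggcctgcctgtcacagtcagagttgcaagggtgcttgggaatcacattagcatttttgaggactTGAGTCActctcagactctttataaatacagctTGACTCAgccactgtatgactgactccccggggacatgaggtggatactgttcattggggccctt
ANKRD1: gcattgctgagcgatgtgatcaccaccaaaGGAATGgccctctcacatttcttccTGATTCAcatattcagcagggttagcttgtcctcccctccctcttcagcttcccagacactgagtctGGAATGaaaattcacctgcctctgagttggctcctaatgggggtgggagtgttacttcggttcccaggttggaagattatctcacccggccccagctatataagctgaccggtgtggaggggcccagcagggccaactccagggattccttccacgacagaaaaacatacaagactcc
ME1: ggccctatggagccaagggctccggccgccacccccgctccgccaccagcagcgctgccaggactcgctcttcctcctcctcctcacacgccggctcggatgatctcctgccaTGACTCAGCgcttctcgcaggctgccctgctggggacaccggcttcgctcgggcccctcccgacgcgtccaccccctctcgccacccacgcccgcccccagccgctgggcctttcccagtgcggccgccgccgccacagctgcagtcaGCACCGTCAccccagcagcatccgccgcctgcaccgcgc

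The 3′ untranslated regions of the shared lower genes held 2 short sequences more often than other genes did. All 7-base sequences present in at least 50 of 10709 genes were ranked by the mean change of their carriers minus that of the other genes, in units of its standard error and after a linear adjustment for the length and GC content of the region. ACTCTCT, in 1133 genes, ranked lowest for si1, and GTCTGCA, in 1268 genes, lowest for si2. The median change of the carriers was -0.11 in si1 for ACTCTCT and -0.16 in si2 for GTCTGCA. They were found in these data, so the shares are descriptions. ACTCTCT stood in 14.8% of shared lower, 7.8% of shared higher and 10.6% of all genes, and GTCTGCA in 20.2%, 7.54% and 11.8%. Unlike the ranking, the shares here and below are not adjusted for length. The median region had 1556 bases in shared lower, 1442 in shared higher and 1350 in all genes. Among shared lower genes that changed by at least 0.5 in each group the shares were 20.4% and 30.7%. Where the fall was larger in si1, 24.5% held ACTCTCT and 15.6% GTCTGCA, and where it was larger in si2, 9.16% and 37.4%. Median lengths in these 2 sets were 1793 and 1508 bases. Of the 20 ranked lower genes 12 held either, and of the 20 ranked higher genes 1 did, against 20.1% of all genes. With carriers of either set aside, 8557 genes remained, 1335 of them shared and higher (15.6%) and 1156 shared and lower (13.5%). Sites in ranked lower genes, in CALM3 and LAMP1, among the genes that differed most between si1 and si2, and in RAB39B, the gene that the title of the series names, are given below with the 7 bases in capitals, on the gene's strand (hg38). SERPINB2, which differed more between si1 and si2 than CALM3 and LAMP1 did, held neither sequence. PXDN held ACTCTCT only, and its fall was larger in si2. TIMP3 held GTCTGCA only, and it was higher in si2.
COPZ1, chr12:54351427-54351447 (plus): tgcatttACTCTCTgccgtgg
COPZ1, chr12:54351441-54351461 (plus): gccgtggGTCTGCAgtcgctg
SLC35F3, chr1:234324014-234324034 (plus): aaataaaACTCTCTatatatg
NIPAL1, chr4:48036373-48036393 (plus): ttgaaatACTCTCTaaggatc
SLC31A1, chr9:113264330-113264350 (plus): atacaaaGTCTGCAtttgata
SPOCK1, chr5:136975298-136975312 (minus): ttactttGTCTGCAa
CLDN11, chr3:170434083-170434099 (plus): acagactGTCTGCAaaa
CALM3, chr19:46609205-46609225 (plus): cgcgcgcACTCTCTcttcaac
LAMP1, chr13:113323184-113323204 (plus): ctctaatGTCTGCAgctcaag
RAB39B, chrX:155259919-155259939 (minus): ggcaaacACTCTCTcctgctg

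The number of carriers differed between the functional groups. Of all shared lower genes 504 of 1660 (30.4%) held at least 1 of the sequences, against 20.1% of all genes. COPZ1 held both sequences within a few bases of each other and fell in both groups. The 12 shared lower interleukin and NF-kB genes held neither, while 8 of the 16 shared lower YAP and TEAD genes and 17 of the 45 shared lower solute carriers (37.8%) held at least 1. Of all 33 YAP and TEAD genes tested 13 did (39.4%). ZNF genes held them about as often as all genes (10% and 11.2%), and among the 265 ZNF genes without either, 109 were shared and higher and 10 lower. Whether these sequences have a part in any change was not tested.

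Membrane transporters and sterol synthesis were among the lower groups. Of 149 tested solute carriers outside mitochondria, 12 were shared and higher and 45 lower, and 9 were called higher and 37 lower. Without NC replicate 1 the calls were 5 and 18, and without NC replicate 2 they were 5 and 14. The median was -0.13. Beside SLC35F3 and SLC31A1, SLC6A17, a vesicular amino acid transporter, was at 2.61 and 2.47 FPKM in NC, 1.04 and 0.916 in si1, and 0.705 and 0.767 in si2. SLC45A3, a sugar transporter known from prostate, was at 3.91 and 3.92 FPKM in NC, 1.65 and 1.66 in si1 and 1.37 and 1.72 in si2. SLC7A5, which imports large neutral amino acids, was at 99.9 and 102 FPKM in NC, against 58.004 and 50.8 in si1 and 78.3 and 79.4 in si2, lower in si1 than in si2. Against the trend, the glucose transporter SLC2A3 was at 8.30 and 7.45 FPKM in NC, 14.4 and 13.8 in si1, and 14.7 and 13.3 in si2, and rose by 0.77 and 0.76. SLC38A2, a glutamine transporter, was at 202 and 191 FPKM in NC, 234 and 256 in si1 and 325 and 317 in si2.

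Cholesterol is built from acetyl-CoA by enzymes whose genes SREBF2 switches on when membranes lack sterol. Of 30 tested cholesterol genes 2 were shared and higher and 13 lower, with 1 called higher and 16 lower. Without NC replicate 1 the calls were 0 and 6, and without NC replicate 2 they were 0 and 5. The median was -0.07 in si1 and -0.36 in si2. HMGCS1, which makes the precursor of mevalonate, was at 35.8 and 34.7 FPKM in NC, against 23.2 and 25.6 in si1 and 23.1 and 25.1 in si2 (change -0.52 ± 0.07, adjusted p = 0.00278). MSMO1, a later demethylating oxidase, was at 69.7 and 73.2 FPKM in NC, 51.9 and 54.999 in si1, and 46.6 and 42.5 in si2. SREBF2 was at 28.1 and 29.3 FPKM in NC, 22.5 and 20.1 in si1 and 17.3 and 17.7 in si2. Their changes were -0.54 and -0.55, and in both the si2 values lay below the si1 values. ACLY, which supplies acetyl-CoA for lipids, was at 77.3 and 80.5 FPKM in NC, against 63.1 and 53.5 in si1 and 49.3 and 46.2 in si2 (change -0.57).

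**Figure D4:**
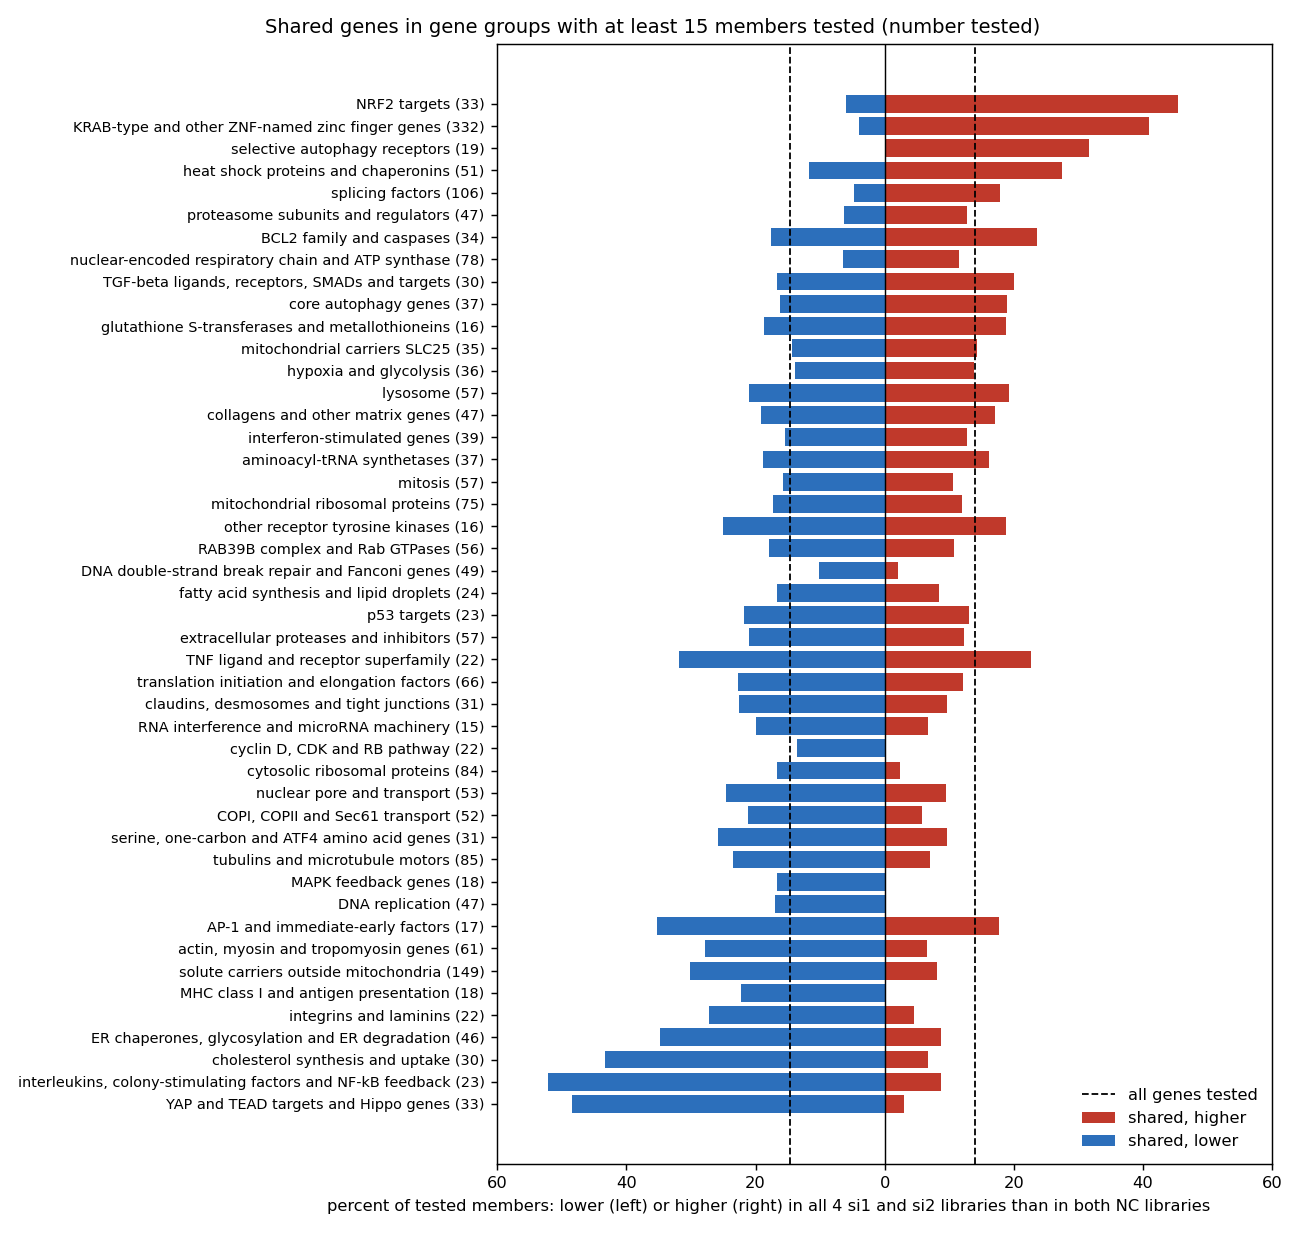
Percent of tested members of each gene group that were shared and higher (red, right) or shared and lower (blue, left), for groups with at least 15 tested members and with the number tested in brackets; dashed lines mark 14% and 14.6%, the shares of all tested genes. ZNF-named zinc fingers have 41.0% higher and 3.92% lower members.

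Cytoskeleton and adhesion genes held more shared lower than shared higher members. Of 61 tested actin genes and regulators 4 were shared and higher and 17 lower, with 3 and 15 called (1 and 7 without NC replicate 1, 1 and 5 without NC replicate 2). LIMA1, which bundles actin filaments, was at 26.5 and 26.4 FPKM in NC, 15.2 and 15.97 in si1, and 17.7 and 15.4 in si2, and fell by 0.73 and 0.65 in si1 and si2. ENAH, which elongates filaments, was at 15.2 and 15.6 FPKM in NC, 23.05 and 23.6 in si1 and 23.1 and 23.4 in si2, and rose by 0.57 and 0.57. Of 85 tested tubulins and motors 6 were shared and higher (7.06%) and 20 lower (23.5%), against 14% and 14.6% of all tested genes. The median over the 85 was -0.02, against -0.01 for all tested genes. MAP1B, a microtubule stabiliser of neurons, was at 46.9 and 46.9 FPKM in NC, against 29.9 and 24.2 in si1 and 31.3 and 31.1 in si2. TUBB4B, a tubulin, was at 243 and 255 FPKM in NC, 179 and 179.8 in si1, and 170.4 and 176 in si2. They fell by 0.68 ± 0.08 and 0.49 ± 0.04 (adjusted p = 0.00248 and 0.000918). Among integrins and laminins 1 of 22 was shared and higher (4.55%) and 6 lower (27.3%), while the median over the 22 was -0.14 in si1 and 0.03 in si2. LAMB3, a chain of the basement membrane protein laminin-332, was at 206 and 215 FPKM in NC, 140.2 and 126 in si1 and 138 and 139.7 in si2, and fell by 0.63 ± 0.06 (adjusted p = 0.000918). The higher member was ITGB8, an integrin that activates TGF-beta, at 3.77 and 3.501 FPKM in NC, against 4.82 and 4.82 in si1 and 10.3 and 9.80 in si2, with si2 far above si1. FN1, the matrix protein fibronectin and 1 of the mesenchymal markers, was at 101 and 101 FPKM in NC, 165 and 132 in si1, and 194 and 199 in si2, and rose by 0.75. Matrix genes as a list were 8 higher (17%) and 9 lower (19.1%) of 47. PXDN, which crosslinks collagen IV, was at 29.4 and 30.7 FPKM in NC, 19.7 and 14.6 in si1 and 6.38 and 6.89 in si2. CEMIP, a hyaluronidase, was at 6.19 and 6.44 FPKM in NC, against 3.56 and 3.26 in si1 and 0.922 and 0.833 in si2. Both fell in steps from NC to si1 to si2. ADAM15, a membrane metalloprotease, was at 15.6 and 16.1 FPKM in NC, 39.7 and 40.1 in si1, and 27.96 and 29.2 in si2, and rose by 1.05. The inhibitor TIMP4 was at 31.1 and 28.7 FPKM in NC, 19.4 and 19.98 in si1 and 19.8 and 21.5 in si2, and fell by 0.55. Of 8 tested keratins 0 were shared and higher and 3 lower, among them KRT7 at 176 and 185 FPKM in NC, against 149 and 142 in si1 and 111 and 112 in si2. KRT80 was at 48.96 and 50.3 FPKM in NC, 26.7 and 23.2 in si1, and 37.1 and 39.96 in si2. CLDN4, another tight-junction claudin, was at 13.7 and 17.1 FPKM in NC, 8.87 and 7.93 in si1 and 8.79 and 7.34 in si2, and its NC libraries spread more than either knockdown group.

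Genes of protein synthesis held more shared lower than shared higher members. Of 84 tested cytosolic ribosomal protein genes 2 were shared and higher (2.38%) and 14 lower (16.7%, near the 14.6% of all tested genes). Called were 1 higher and 30 lower, against 1 and 8 without NC replicate 1 and 1 and 3 without NC replicate 2. The list's median was -0.01 in si1 and -0.30 in si2. RPS3, of the small subunit, was at 188 and 199 FPKM in NC, against 120.2 and 126 in si1 and 126 and 125 in si2. RPL18, of the large subunit, was at 97.5 and 103 FPKM in NC, 68.1 and 66.9 in si1, and 72.3 and 74.02 in si2. RPL26L1, a paralogue of RPL26, went up, at 17.9 and 16.2 FPKM in NC, 27.8 and 28.98 in si1 and 31.98 and 34.5 in si2. The 3 genes changed by -0.63, -0.51 and 0.81, and ribosomal protein genes have many pseudogene copies that can take reads. Of 66 tested translation factors 8 were shared and higher (12.1%) and 15 lower (22.7%). EIF4EBP1, a repressor of cap binding, was at 63.2 and 60.1 FPKM in NC, against 28.2 and 27.5 in si1 and 50.3 and 51.1 in si2. EIF5A2 was at 9.31 and 9.12 FPKM in NC, 4.70 and 6.01 in si1, and 4.57 and 4.10 in si2.

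In the endoplasmic reticulum, 4 of 46 tested chaperone and degradation genes were shared and higher and 16 lower, while the median over the 46 was -0.28 in si1 and 0.08 in si2. Called were 3 higher and 14 lower, 2 and 7 without NC replicate 1 and 3 and 6 without NC replicate 2. HYOU1, an ER chaperone, was at 23.8 and 23.04 FPKM in NC, 17.7 and 15.4 in si1 and 8.57 and 9.07 in si2, lowest in si2. CALR, a lectin chaperone, was at 245 and 250.1 FPKM in NC, against 179.6 and 177 in si1 and 188 and 188 in si2. They fell by 0.90 ± 0.07 and 0.43 ± 0.04 (adjusted p = 0.000617 and 0.000998). GANAB and ERO1A, the oxidase of disulfide formation, were exceptions, with ERO1A at 13.3 and 13.8 FPKM in NC, 17.2 and 18.3 in si1, and 25.2 and 25.4 in si2. Cytosolic and mitochondrial heat shock genes were 14 higher (27.5%) and 6 lower (11.8%) of 51, against 14% and 14.6% of all tested genes. CCT5, of the actin- and tubulin-folding chaperonin, was at 63.96 and 64.05 FPKM in NC, 77.7 and 81.7 in si1 and 85.1 and 84.3 in si2. AHSA1, which activates HSP90, was at 30.5 and 30.1 FPKM in NC, against 44.6 and 46.2 in si1 and 37.9 and 36.8 in si2.

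Amino acid stress genes held more shared lower than shared higher members. ATF4 is the factor that induces amino acid transporters, synthetases and CHAC1 when amino acids run short. Of 31 tested members of that list 3 were shared and higher and 8 lower, and the median over the 31 was -0.46 in si1 and 0.14 in si2. CHAC1, which degrades glutathione, was at 18.1 and 17.8 FPKM in NC, 6.12 and 7.81 in si1, and 8.89 and 11.7 in si2. STC2, a secreted glycoprotein of stressed cells, was at 78.7 and 86.2 FPKM in NC, 34.96 and 28.99 in si1 and 44.3 and 49.3 in si2. YARS, from the list of tRNA synthetases (6 higher and 7 lower of 37, or 16.2% and 18.9%), was at 46.1 and 43.99 FPKM in NC, against 34.3 and 33.2 in si1 and 16.4 and 16.7 in si2. They fell by 1.01 ± 0.12, 1.07 ± 0.09 and 0.90 ± 0.05 (adjusted p = 0.00238, 0.000684 and 0.00024). DDIT4, an inhibitor of mTORC1 that ATF4 can also induce, was at 11.1 and 12.7 FPKM in NC, 22.4 and 19.8 in si1, and 20.1 and 20.2 in si2, and rose by 0.75 ± 0.08 (adjusted p = 0.00143). Among glycolysis genes PFKL, a phosphofructokinase, was at 16.7 and 18.4 FPKM in NC, 35.4 and 34.5 in si1 and 25.2 and 27.1 in si2, while the hypoxia list was balanced at 5 higher and 5 lower of 36. Respiratory chain subunits were 9 higher (11.5%) and 5 lower (6.41%) of 78, against 14% and 14.6% of all tested genes. CYC1, of complex III, was at 52.3 and 52.8 FPKM in NC, against 37.5 and 36.2 in si1 and 34.3 and 32.2 in si2. Its si2 values lay a little below its si1 values. TOMM22, a receptor for proteins entering mitochondria, was at 10.3 and 9.75 FPKM in NC, 18.4 and 21.3 in si1, and 18.4 and 21.4 in si2, with the same range in both knockdown groups.

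Autophagy genes, the process in the title of the series, were shared in both directions. Autophagy wraps cytoplasm in a double membrane that fuses with lysosomes, and the ULK kinases start it. Of 37 tested core genes 7 were shared and higher (18.9%) and 6 lower (16.2%), against 14% and 14.6% of all tested genes. Called were 5 higher and 5 lower (13.5% each, against 8.73% and 11.8% of all), and fewer with either NC library left out. ATG9A, the transmembrane protein that seeds the membrane, was at 16.6 and 17.4 FPKM in NC, 11.2 and 10.3 in si1 and 7.60 and 6.27 in si2, and fell by 0.90 ± 0.09 (adjusted p = 0.00102). ULK2 was at 3.45 and 3.07 FPKM in NC, against 4.65 and 5.06 in si1 and 4.91 and 4.66 in si2, and it passed the test only with NC replicate 2 included (adjusted p of 0.0949 otherwise). Of 19 selective receptors 6 were shared and higher and 0 lower, and 1 was called higher and 1 lower (5 and 1 with libraries scaled by median ratio, 0 and 0 without NC replicate 1). Of 57 lysosomal genes 11 were higher (19.3%) and 12 lower (21.1%). PPT1, a lysosomal thioesterase, was at 34.4 and 34.4 FPKM in NC, 46.8 and 50.1 in si1, and 63.4 and 63.03 in si2, and 23.4% of its exon bases overlap CAP1 on the other strand. Of 56 tested genes of RAB GTPases and of proteins that bind or regulate them 6 were shared and higher (10.7%) and 10 lower (17.9%). RAB39B was 1 of the lower ones, at 1.90 and 2.63 FPKM in NC, 0.838 and 0.573 in si1 and 1.30 and 0.755 in si2, or 34 to 162 reads. Its highest knockdown library, si2 replicate 1, was well below its lower NC library. The change of RAB39B was -0.81 ± 0.17 (adjusted p = 0.0191). It did not pass with NC replicate 1 left out (0.0629), NC replicate 2 left out (0.159), unfiltered low genes added (0.105) or si1 and si2 as 1 group (0.143).

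The cell cycle lists held smaller shares of shared higher members than the 14% of all tested genes. Their shares of shared lower members lay above or below the 14.6% of all tested genes. DNA replication genes held 0 higher and 8 lower (17%) of 47, and the list's median was -0.29 in si1 and 0.23 in si2. MCM4, of the replicative helicase, was at 25.3 and 24.3 FPKM in NC, against 16.9 and 16.7 in si1 and 18.98 and 19.2 in si2. FEN1, which removes Okazaki flaps, was at 34.99 and 34.6 FPKM in NC, 16.4 and 17.3 in si1, and 33.6 and 33.05 in si2, with si2 just under NC and si1 far under. TK1, which salvages thymidine, was at 75.5 and 81.4 FPKM in NC, 66.4 and 71.1 in si1 and 44.9 and 46.5 in si2, with the larger fall in si2. Cyclin D and RB pathway genes held 0 higher and 3 lower (13.6%) of 22. CCND1, cyclin D1, was at 275 and 282 FPKM in NC, against 115 and 103 in si1 and 249.9 and 251 in si2. Mitosis genes held 6 higher (10.5%) and 9 lower (15.8%) of 57. Replication-dependent histones held 0 of 14 in either direction, and their median was 0.66 in si1 and -0.28 in si2. Double-strand break repair genes held 1 higher (2.04%) and 5 lower (10.2%) of 49.

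Splicing factors held 19 shared higher (17.9%) and 5 shared lower (4.72%) genes of 106, against 14% and 14.6% of all tested genes, with 7 called higher (6.6%, against 8.73% of all) and 1 lower, 1 and 0 without NC replicate 1, and 3 and 0 without NC replicate 2. SF3B2, of the U2 snRNP, was at 14.7 and 15.3 FPKM in NC, 22.9 and 21.8 in si1, and 21.3 and 20.52 in si2, and rose by 0.50 ± 0.06 (adjusted p = 0.00206). Nuclear pore and transport genes were 5 higher (9.43%) and 13 lower (24.5%) of 53. Interferon-stimulated genes were 5 higher (12.8%) and 6 lower (15.4%) of 39, near the shares of all tested genes. IFIT2, which binds foreign RNA, was at 11.9 and 11.2 FPKM in NC, 17.4 and 18.2 in si1 and 18.6 and 18.4 in si2, and rose by 0.61. OAS3, which senses double-stranded RNA, was at 15.2 and 14.2 FPKM in NC, against 10.4 and 8.21 in si1 and 5.47 and 6.12 in si2, and fell by 0.91. MHC class I and antigen presentation genes were 0 higher and 4 lower (22.2%) of 18. HLA-B was at 61.6 and 65.6 FPKM in NC, 57.2 and 60.2 in si1, and 33.6 and 34.2 in si2, with si1 near NC (change -0.11) and si2 well below (-0.89). BCL2 family and caspase genes were 8 higher (23.5%) and 6 lower (17.6%) of 34. The death effector BAK1 was at 9.17 and 9.24 FPKM in NC, 5.36 and 5.66 in si1 and 7.04 and 7.15 in si2.

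The non-coding genes ranked first rested on few reads, and no test is given for them. MIR27B, whose value covers the hairpin within its host gene, was at 10.5 and 8.22 FPKM in NC, against 16.4 and 15.2 in si1 and 23.5 and 17.7 in si2, from 14 to 36 reads. Other ranked microRNA and small nucleolar RNA genes had fewer: MIR6819 0 to 7 reads per library and SNORD20 0 to 12. OCIAD1-AS1 had 0 to 14 reads, and 82.3% of its exon bases overlap OCIAD1 on the other strand. Of 16 small nucleolar RNA host genes 0 were shared and higher and 5 lower, and of 297 genes annotated as long intergenic non-coding RNA 38 were higher (12.8%) and 32 lower (10.8%), near the shares of all tested genes.

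The size of a shared change often differed between the knockdown groups. The direct contrast of si2 with si1 called 4743 of the 12319 tested genes (38.5%), 2455 higher (19.9%) and 2288 lower (18.6%) in si2, and 1500 and 1473 without si2 replicate 1. Of the shared higher genes it called 381 (22%), with the larger change in si1 for 166 and in si2 for 215, and of the shared lower genes 558 (31%), with 267 and 291. Some genes moved almost identically. ZFP90 and ZNF525, named above, were among the 6 higher genes with the smallest difference. CEMIP2, a relative of CEMIP, was at 3.51 and 3.47 FPKM in NC, 6.11 and 5.94 in si1, and 6.14 and 5.81 in si2. JCAD, a junctional protein of endothelium and Hippo signalling, was at 12.1 and 11.5 FPKM in NC, 7.35 and 5.79 in si1 and 6.69 and 6.33 in si2, a change of -0.76 in si1 and -0.77 in si2. A test that finds no difference here does not show that the changes are equal.

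At the other end, several shared genes moved mostly in 1 group. SERPINB2, an inhibitor of plasminogen activators, was at 33.9 and 33.98 FPKM in NC, against 5.01 and 5.70 in si1 and 26.2 and 24.6 in si2. CALM3, a calmodulin gene, was at 62.3 and 66.1 FPKM in NC, 15.4 and 11.8 in si1, and 50.7 and 50.6 in si2. LAMP1, a major lysosomal membrane protein, was at 54.6 and 56.3 FPKM in NC, 54.2 and 51.1 in si1 and 13.7 and 15.2 in si2, and its si1 values were within 6 FPKM of NC. The si2 minus si1 differences were 2.06 ± 0.08 for SERPINB2, 1.83 ± 0.11 for CALM3 and -1.80 ± 0.07 for LAMP1 (adjusted p = 2.12e-05, 7.93e-05 and 2.71e-05). TMEM109, an ER membrane protein, was at 29.9 and 27.4 FPKM in NC, against 19.5 and 20.55 in si1 and 5.86 and 5.76 in si2. TIMP3, a matrix-bound protease inhibitor, was at 51.2 and 54.04 FPKM in NC, 59.1 and 62.5 in si1, and 141 and 137 in si2. FAM3C, a secreted protein, was at 45.8 and 49.5 FPKM in NC, 60.001 and 62.1 in si1 and 130.1 and 124 in si2. In both the si2 libraries lay far above si1, while si1 was a little above NC. SOD2, the mitochondrial superoxide dismutase, showed the reverse, at 30.4 and 29.5 FPKM in NC, against 67.7 and 78.4 in si1 and 34.9 and 33.8 in si2.

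**Figure D5:**
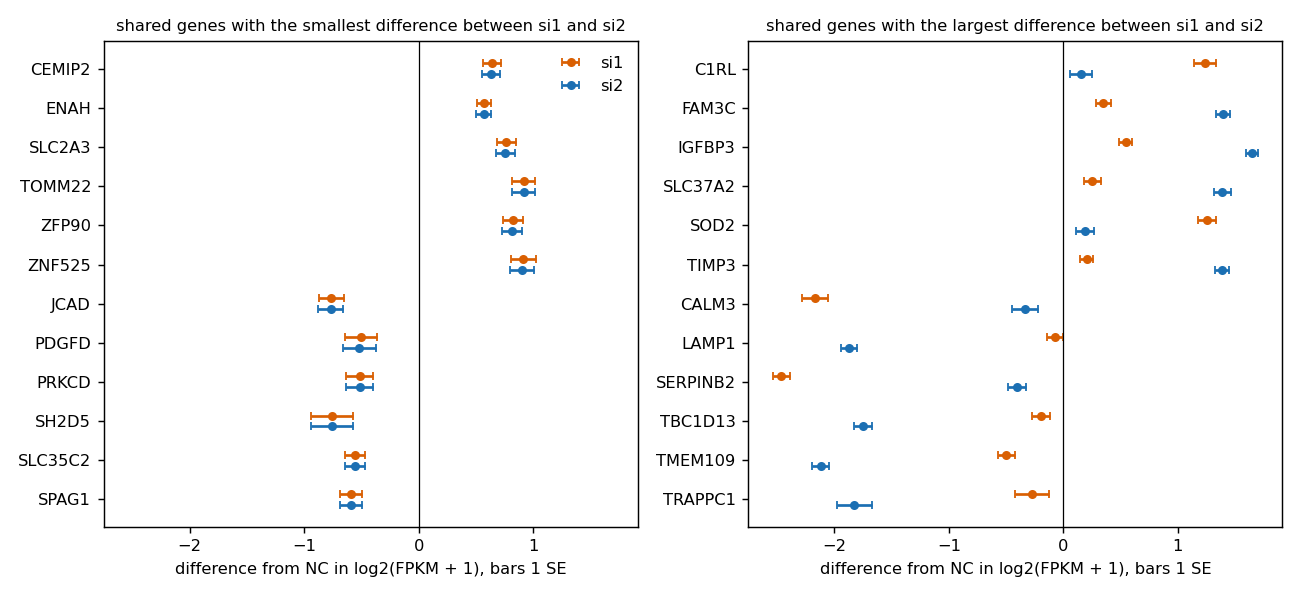
Difference from NC in log2(FPKM + 1) for si1 (orange) and si2 (blue), with bars of 1 SE, for the 6 shared genes of each direction with the smallest (left) and largest (right) si2 minus si1 difference. On the left the points of each gene nearly coincide, while on the right SERPINB2 stands at -2.46 in si1 and -0.41 in si2.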

How the data were processed

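The deposited table gave FPKM for 58735 genes in 6 libraries, computed by the authors. The build is hg38 per the submitters' processing notes, and the aligner, counter, annotation and handling of strand are not given in the sources used here. FPKM times gene length was divided by a step fitted to each library. The quotient was a whole number within 0.01 reads in 100% of the positive values, which gave the read numbers and depths. Genes averaging 1 FPKM or more were tested as log2(FPKM + 1), so changes of low genes are understated. The test was limma (version 3.58.1, R 4.3.3) over the 6 libraries together, with group as the only factor and a variance trend (3 residual and 4.03 prior degrees of freedom), two-sided, with Benjamini-Hochberg adjustment over 12319 genes. SE is limma's standard error. The fit was tested on simulated data.

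The shared genes and gene lists were chosen with earlier results of these data known. Named genes are the 20 ranked first in each direction by the smaller of the si1 and si2 changes among called shared genes, 5 non-coding genes and up to 5 members of each list by the same rank, the 6 most and least unequal in each direction, those at the edge of the level filter, and the KRT6 genes and RAB39B. Of these, the text gives mainly the 151 that lost their call in no alternative or only with si1 and si2 as 1 group. A few selected genes are not reported here. ZNF57 and the chromosome split were chosen after their values were seen. All 58735 genes matched GENCODE 29 coordinates. Sequences are from RefSeq (promoters) and that annotation on hg38 (3′ untranslated regions). Alternatives changed the pseudocount, filter, variance trend, scaling, groups, replicate block and libraries used, and voom on recovered reads was added after seeing the data.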

Additional observations from a re-analysis of the deposited data

Results flagged for a closer look

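For 81 of the 147 shared genes named in the report, the si2 minus si1 difference in log2(FPKM + 1) itself passed limma's test (adjusted p from 2.12e-05 to 0.0467 over all tested genes), 42 with the larger change in si1 and 39 in si2. The contrast called 38.5% of all tested genes. In each of them the 4 knockdown libraries lie on the same side of NC by the rule that chose the genes, so the size of the change differs and not its direction. The differences are given as si2 minus si1, and what lies behind them was not tested.

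Among shared higher genes with the larger change in si1 it was -1.06 for SOD2, -0.94 for CEBPD, -0.84 for TNFSF10, -0.77 for AKR1C2, -0.71 for AKR1C1, -0.66 for ME1 and -0.47 for ADAM15. Next in size came -0.41 for ALDH3A1, -0.41 for PFKL, -0.37 for GCLC, -0.37 for HABP4, -0.36 for AKR1B10 and -0.27 for AHSA1.

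Among shared higher genes with the larger change in si2 it was 1.18 for TIMP3, 1.10 for IGFBP3, 1.04 for FAM3C, 0.98 for BTC, 0.92 for ITGB8, 0.80 for CXCL1 and 0.63 for CXCL2. Next in size came 0.51 for AHR, 0.49 for ERO1A, 0.47 for ERRFI1, 0.47 for TPM4, 0.41 for FN1, 0.39 for SLC38A2 and 0.38 for CXCL6. The smallest were 0.38 for PPT1, 0.37 for ZW10, 0.34 for TNFRSF11B, 0.25 for CYP1B1 and 0.23 for GANAB.

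Among shared lower genes with the larger fall in si1 it was 2.06 for SERPINB2, 1.83 for CALM3, 1.45 for ETV5, 1.20 for CCND1, 1.03 for AXL, 1.00 for LIF and 0.99 for MYEOV. Next in size came 0.96 for TNFRSF9, 0.94 for FEN1, 0.91 for FOSL1, 0.84 for EIF4EBP1, 0.83 for EPHA2, 0.79 for HBEGF and 0.72 for TNFRSF10B. Smaller again were 0.61 for KRT80, 0.61 for SPRY4, 0.55 for IL18, 0.54 for STC2, 0.53 for SLC7A5, 0.51 for CD274 and 0.50 for CHAC1. Then followed 0.45 for MATN3, 0.43 for ARF3, 0.37 for BIRC3, 0.31 for BAK1, 0.31 for JUN, 0.27 for SPOCK1 and 0.26 for SMAD3. The smallest were 0.22 for GPRC5A.

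Among shared lower genes with the larger fall in si2 it was -1.80 for LAMP1, -1.62 for TMEM109, -1.23 for CEMIP, -1.23 for PXDN, -1.02 for CLDN11, -0.99 for YARS and -0.84 for HYOU1. Next in size came -0.77 for HLA-B, -0.60 for FOSL2, -0.59 for OAS3, -0.59 for TNFRSF1B, -0.58 for TK1, -0.57 for ATG9A and -0.49 for MT1E. The smallest were -0.48 for GSTM4, -0.37 for KRT7, -0.31 for TGFB2, -0.28 for ACLY, -0.27 for SREBF2 and -0.26 for MSMO1.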

How the results depend on the processing

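The shared set kept 3454 of its 3529 genes, in the same direction, when libraries were scaled by median ratio. It held 1058 higher and 1124 lower genes when the mean had to reach 5 FPKM, and 882 and 966 when a gap of at least 0.1 log2 from NC was asked for. Leaving out each library in turn gave 1998 to 2517 higher and 2077 to 2604 lower genes, since fewer values have to agree. With no filter on low values, calls were 453 higher and 674 lower for both groups together, 556 and 858 for si1, 790 and 995 for si2, and 1606 and 1524 for si2 against si1. The contrast of both groups called 50 higher and 34 lower with si1 and si2 as 1 group. With each library left out in turn it called 298 to 1248 higher and 403 to 1596 lower, si1 434 to 996 and 680 to 1447, si2 668 to 1936 and 822 to 2111, and si2 against si1 1500 to 2295 and 1473 to 2072. The fewest calls came without an NC library for the contrasts with NC, where the lone NC library is assumed to vary like the other groups. With voom on recovered reads, added after seeing the data, 1542 were called higher and 1997 lower. The replicate numbers did not pair the samples (correlations of their deviations -0.05, 0.05 and -0.06 across 12319 genes), and with a replicate block 869 were called higher and 1189 lower. Of 283 named genes that were called, 51 kept the call with si1 and si2 as 1 group, 170 without NC replicate 1, 173 without NC replicate 2, 194 with no filter and 276 with voom, and none reversed in these alternatives. The causes were not tested. With 2 libraries a group, the spread of a gene is set largely by the trend over all genes, and small differences are not resolved.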

Other observations

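Some further gene groups held unequal numbers of higher and lower members. Of 52 tested genes of the COPI and COPII coats and the Sec61 channel 3 were shared and higher (5.77%) and 11 lower (21.2%). The median of that list was -0.13 in si1 and 0.03 in si2. Of 171 genes with the words transmembrane protein in their description, wherever in the cell the protein lies, 20 were higher (11.7%) and 38 lower (22.2%), against 14% and 14.6% of all tested genes. Claudins, desmosomes and tight junctions held 3 higher (9.68%) and 7 lower (22.6%) of 31. Proteasome genes held 6 higher (12.8%) and 3 lower (6.38%) of 47, while 1 was called higher and 6 were called lower. Dehydrogenases and reductases held 47 higher (17.7%) and 29 lower (10.9%) of 265.

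Several groups were close to the share of all tested genes or split evenly. Kinases held 79 higher (15.2%) and 83 lower (16.0%) of 519, ubiquitin genes 30 and 26 of 204, and mitochondrial carriers 5 and 5 of 35. Mitochondrial ribosomal proteins held 9 higher and 13 lower of 75, and mitochondrially encoded genes 2 and 2 of 13. By chromosome, the 277 tested genes of chromosome 22 held 24 shared higher (8.66%) and 58 shared lower (20.9%), a count looked at after the values were seen.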
